A study of Mus musculus with 9 samples.

Results

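The type I interferon response genes described here are 34 interferon-stimulated genes, among them Oas2, picked by name from the 23171 gene rows of an RNA table. The choice was made with earlier results of these data known, and all 34 had a row. They were followed in 9 libraries of CD4 T cells that came from spleen and lymph nodes of C57BL6 mice. The labels put 3 libraries in each of the groups naive, Hopx low and Hopx high. Hopx, which gives the groups their names, is an atypical homeodomain protein that lacks DNA binding. The treatment text is the same for every library: mice received chimeric antibodies that target an antigen to dendritic cells, T cells were sorted 5 days later, restimulated for 12 h in culture with antigen-presenting cells and sorted once more. No genotype, reporter allele, age or gate for Hopx is named in the labels, nor which animals gave the naive cells. The labels do not tie replicates to separate mice, and p-values here measure only the spread between samples, which may be technical.

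Type I interferons bind a receptor made of IFNAR1 and IFNAR2. The attached kinases JAK1 and TYK2 activate a transcription factor complex called ISGF3, which holds STAT2 and IRF9. ISGF3 binds the interferon-stimulated response element (ISRE) in the promoters of its target genes. The products block virus replication at many steps, and in T cells the pathway is also known to restrain or redirect proliferation and effector differentiation. Most of the 34 genes are targets of ISGF3. Several also respond to interferon gamma or to IRF3.

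Levels are given as bases of coverage in a gene per megabase (Mb) of the library's summed coverage. Summed coverage was 63.3 to 289 megabases in naive, 330 to 442 in Hopx low and 203 to 800 in Hopx high libraries. At an assumed read length of 100 bases, 1 read adds 0.125 to 1.58 bases per Mb, so smaller values were not resolved. Naive replicates 1 and 2 differed by about the sampling noise and count as 1 sample, which leaves n = 2 for naive. Naive replicate 3 stood apart from them over most genes. Xist, the RNA of the inactive X chromosome, was at 76.1 to 263 in the naive libraries and did not exceed 0.4 in the others. Ddx3y, on the Y chromosome, was at 30.7 to 85.5 in the 6 Hopx libraries and did not exceed 0.3 in naive. The sex of the animals can therefore not be told apart from the step from naive to Hopx libraries. Hopx itself was at 0, 0 and 1.64 in naive, 3.32, 6.90 and 3.29 in Hopx low and 8.95, 7.79 and 4.89 in Hopx high. Its difference between Hopx high and Hopx low was 0.60 on the log2 scale and did not pass limma (adjusted p = 0.992 in the fit to all groups and 0.678 in the fit to the 6 Hopx libraries).

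An element that part of the set shares is shown by 5 promoters. RefSeq promoters of build GRCm38.p6 were matched for 25 of the 34 genes. The ISRE core TTTCNNTTTC, or GAAANNGAAA on the other strand, lay within 250 bases before the start of 9 of these 25 genes (36%), against 3.46% of the 27025 genes with a promoter. The 9 were Bst2, Ifit1, Ifit3, Isg15, Oas1a, Oas3, Rsad2, Stat2 and Trim30a. No promoter was matched for Oas2, so it was not searched and nothing is known here of its elements. The core TTCNNNGAA of the GAS element, a site of the interferon gamma response, was found in 5 of 25 (20%), against 8.13% of all. A match describes these letters and not binding. The 160 bases before the start are printed for 5 genes picked from the 9 with an ISRE core. They run 5′ to 3′ on the gene's own strand, with ISRE cores in capitals. The genes are Oas3 (chr5:120777660-120777819, minus strand), Oas1a (chr5:120907526-120907685, minus strand), Ifit1 (chr19:34640729-34640888, plus strand), Ifit3 (chr19:34583369-34583528, plus strand) and Isg15 (chr4:156200819-156200978, minus strand). Of the same families, Oasl1, Oasl2 and Ifit2 were searched and held no ISRE core.
Oas3: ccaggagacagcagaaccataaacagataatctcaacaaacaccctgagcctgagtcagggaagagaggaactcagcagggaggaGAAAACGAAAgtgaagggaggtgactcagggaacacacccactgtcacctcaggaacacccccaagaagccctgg
Oas1a: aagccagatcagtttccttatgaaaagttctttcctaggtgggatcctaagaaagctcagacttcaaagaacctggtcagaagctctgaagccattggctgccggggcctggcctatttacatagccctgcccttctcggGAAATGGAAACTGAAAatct
Ifit1: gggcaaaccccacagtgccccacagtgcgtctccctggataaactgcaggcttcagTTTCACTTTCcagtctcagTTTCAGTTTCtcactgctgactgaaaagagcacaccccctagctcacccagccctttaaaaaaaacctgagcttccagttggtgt
Ifit3: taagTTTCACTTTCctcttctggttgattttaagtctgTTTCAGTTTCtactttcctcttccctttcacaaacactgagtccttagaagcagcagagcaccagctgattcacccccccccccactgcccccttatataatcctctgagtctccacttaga
Isg15: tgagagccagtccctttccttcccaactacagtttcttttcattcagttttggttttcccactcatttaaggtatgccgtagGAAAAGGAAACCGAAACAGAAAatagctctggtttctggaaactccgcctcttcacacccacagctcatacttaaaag
Oas3 held 1 core, from base -75 to -66 relative to the start. Ifit1 had 2 separate cores, at -104 and -85, and Ifit3 had 2, at -156 and -122. In Oas1a 2 cores overlapped, at -20 and -14, and in Isg15 3 overlapped, at -78, -72 and -66.

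Per kilobase of exon, the scale on which genes can be compared, the mean over 9 libraries spanned 0.0706 to 1112 bases per Mb per kb. Ifi27l2a, a small hydrophobic protein of inner membranes, ranked first, followed by Bst2 at 167, Ifi47 at 119, Isg15 at 92.7 and Ifi35 at 74.1. Oas2, at 8.44, ranked 21 of 34. Ifi44, a cytoplasmic protein of uncertain function, was the lowest, at most 1.07 bases per Mb in any library. It was the 1 gene below the filter of a mean of 1 base per Mb, so 33 of the 34 were tested.

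**Figure D1:**
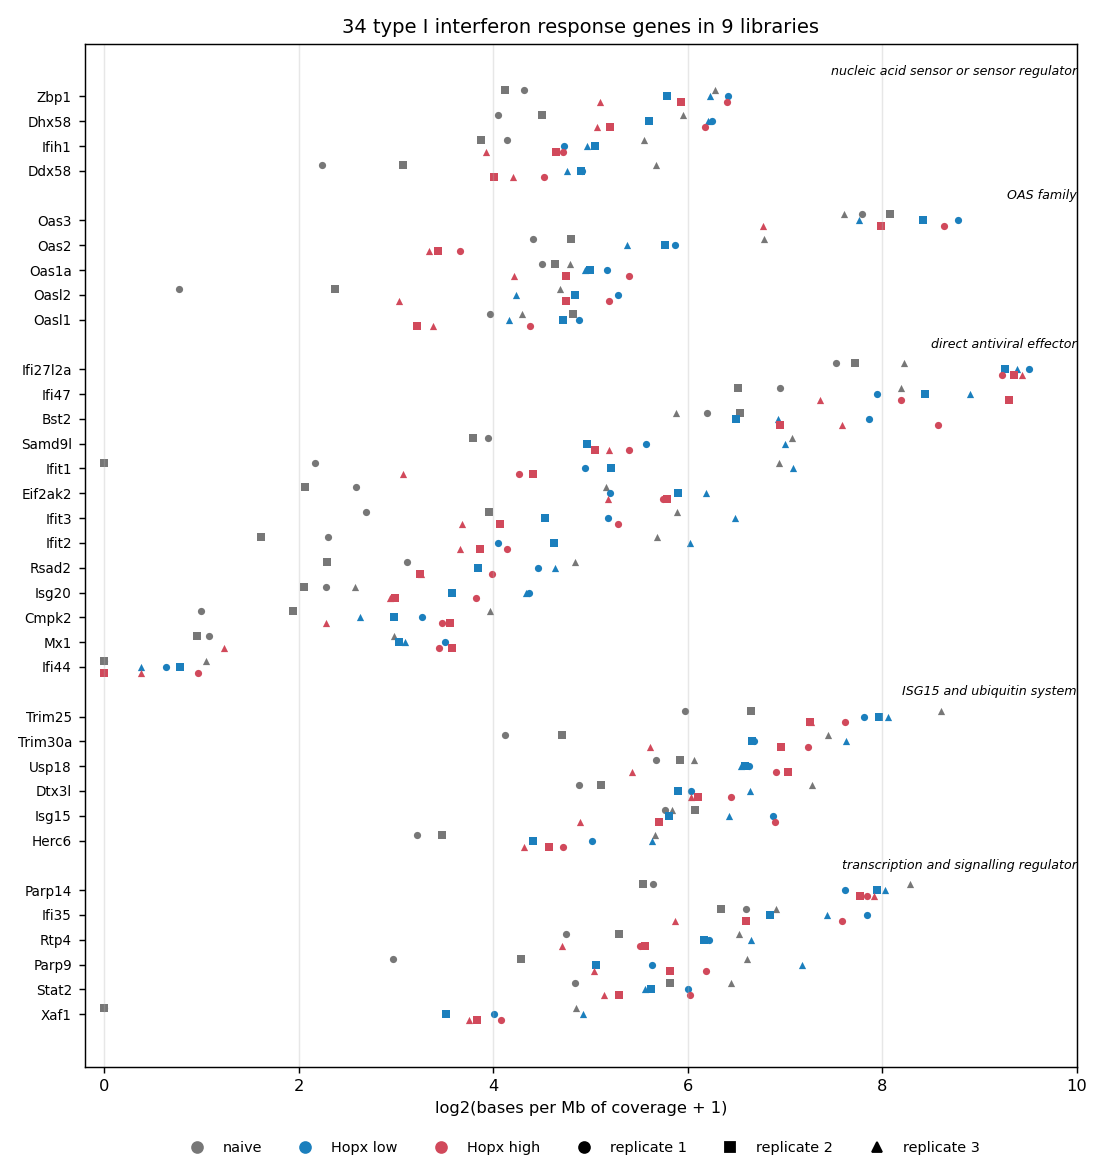
Level of each of the 34 genes in each of the 9 libraries, as log2(bases per Mb + 1), grouped by role, with colour for the group and shape for the replicate number. Oas2 in the 3 Hopx high libraries lies below all other libraries, Ifi27l2a in the 6 Hopx libraries lies above the 3 naive libraries, and for many genes the naive triangle (replicate 3) lies far right of the other naive libraries.

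Oas2 had the largest difference between Hopx high and Hopx low of the 33 tested genes. It encodes an oligoadenylate synthetase, of a family of enzymes that sense double-stranded RNA and make short adenylate chains that activate the ribonuclease RNase L. Oas2 lies on chromosome 5 from 120730333 to 120749853 on the minus strand (GRCm38, GENCODE M21). Hopx high libraries held 11.6, 9.80 and 9.13 bases per Mb and Hopx low libraries 57.6, 53.3 and 40.4, so the groups did not overlap. Naive libraries held 20.3, 26.9 and 109, all above Hopx high. The mean was 10.2 ± 1.30 (SD, n = 3) in Hopx high, 50.4 ± 8.92 (SD, n = 3) in Hopx low and 66.3 ± 60.4 (SD, n = 2) in naive. Oas2 was lower by 2.19 on the log2 scale in Hopx high than in Hopx low, a 4.57-fold difference. It passed limma in the fit to the 6 Hopx libraries (SE 0.41, adjusted p = 0.0059) and not in the fit to all groups (SE 0.56, adjusted p = 0.390), which carries the spread of the naive libraries. Without naive replicate 3 the fit to all groups gave an adjusted p of 0.00622 at the same difference. In the 6-library fit the call was lost when no filter on low values was used (adjusted p = 0.227). In the authors' deposited table the ratio of Hopx high to Hopx low was 0.202 with an unadjusted p of 0.00151.

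No other OAS gene passed limma between Hopx high and Hopx low. Oas3, a larger synthetase, lies on the same chromosome and strand, separated from Oas2 by 3244 bases. It was at 397, 253 and 108 bases per Mb in Hopx high libraries, 438, 340 and 216 in Hopx low and 220, 269 and 193 in naive, and the groups overlapped. Its log2 difference between Hopx high and Hopx low was -0.52 (SE 0.44, limma adjusted p = 0.697 in the 6-library fit). Oas1a, a further synthetase, is separated from Oas3 by 118594 bases. It was at 41.2, 25.8 and 17.6 in Hopx high, 34.9, 30.9 and 29.9 in Hopx low and 21.6, 23.8 and 26.6 in naive. Its log2 difference between Hopx high and Hopx low was -0.25 (limma adjusted p = 0.854 in the 6-library fit). Oasl1, an OAS-like protein without synthetase activity that limits Irf7 translation, was at 19.8, 8.32 and 9.44 in Hopx high and at 28.5, 25.2 and 16.9 in Hopx low. Oasl2, an OAS-like synthetase, was at 35.6, 25.9 and 7.2 in Hopx high and at 38.0, 27.6 and 17.8 in Hopx low. The log2 differences of Oasl1 and Oasl2 were -0.92 and -0.46, with adjusted p of 0.488 and 0.764. Oas1a has near copies in the mouse genome, so its reads may be shared among them.

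Setting Oas2 against another gene of the same library removes what scales both alike. The log2 ratio of Oas2 to Oas3 was -4.98, -4.55 and -3.43 in Hopx high and -2.91, -2.65 and -2.39 in Hopx low, a difference of -1.67 with no overlap. In naive it was -3.38, -3.27 and -0.82, so naive replicate 3 lay above all 8 other libraries. Against Oas1a the difference between Hopx high and Hopx low was -1.94, against Oasl1 -1.27 and against Oasl2 -1.73, again without overlap. Each of the 4 ratios gave p = 0.1 in a two-sided exact permutation test, the smallest that 3 against 3 libraries allow, and 0.1 after Benjamini-Hochberg adjustment over the 4. The ratios were chosen after the values had been seen. All 4 share Oas2, whose values were known not to overlap, so the tests are not independent and add no support.

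**Figure D2:**
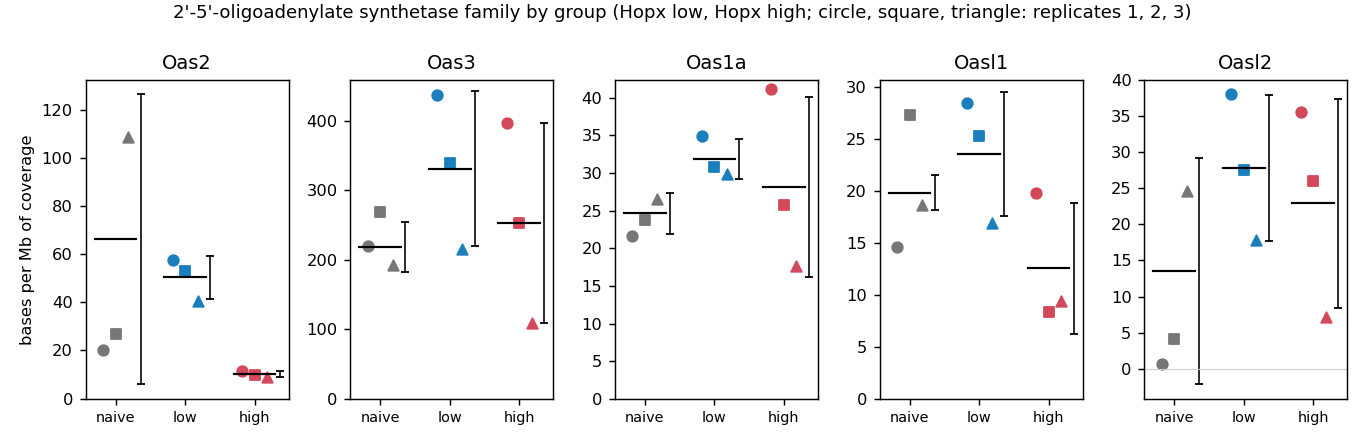
Bases per Mb of 5 OAS family genes in each library; bars show the group mean with the SD beside it (naive n = 2, with replicates 1 and 2 averaged; Hopx low and Hopx high n = 3), and the axes differ between panels. Oas2 lies at 9.13 to 11.6 in Hopx high against 40.4 to 57.6 in Hopx low, while the ranges of the other 4 genes overlap between these groups.

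Over the whole set 30 of the 33 tested genes were lower in Hopx high than in Hopx low by the fitted difference, where 69.7% of all genes tested had that sign. Their median log2 difference was -0.48, beside -0.25 for all genes in the 6-library fit. Relative to the median gene it was -0.24, beside -0.01. Oas2 was the 1 member called lower in the 6-library fit, where 0.148% of all genes were called lower, and no member was called higher, where 0.489% were. The genes, Oas2 among them, were chosen with earlier results of these data known, so this call is no result about the set. In the fit to all groups none of the 33 and 0% of all genes were called in either direction by limma. At an unadjusted p under 0.05, 6 members were lower in the 6-library fit (6.46% of all genes) and 2 in the fit to all groups (2.43%), and none was higher (3.31% and 2.07% of all genes). The 3 Hopx high libraries lay below the 3 Hopx low libraries for 6 of the 33 members, namely Oas2, Ifit1, Rtp4, Trim25, Ddx58 and Ifih1, where 9.98% of all genes did. They lay above for none, where 4.55% did. Oas2, Ddx58, Trim25 and Rtp4 were the 4 members that in the authors' deposited table had an unadjusted p under 0.05 with a ratio under 1, where 3.82% of all rows had such a p in either direction. Those 23171 rows include many without coverage, and the share is not split by direction, so it is not like the shares above.

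**Figure D3:**
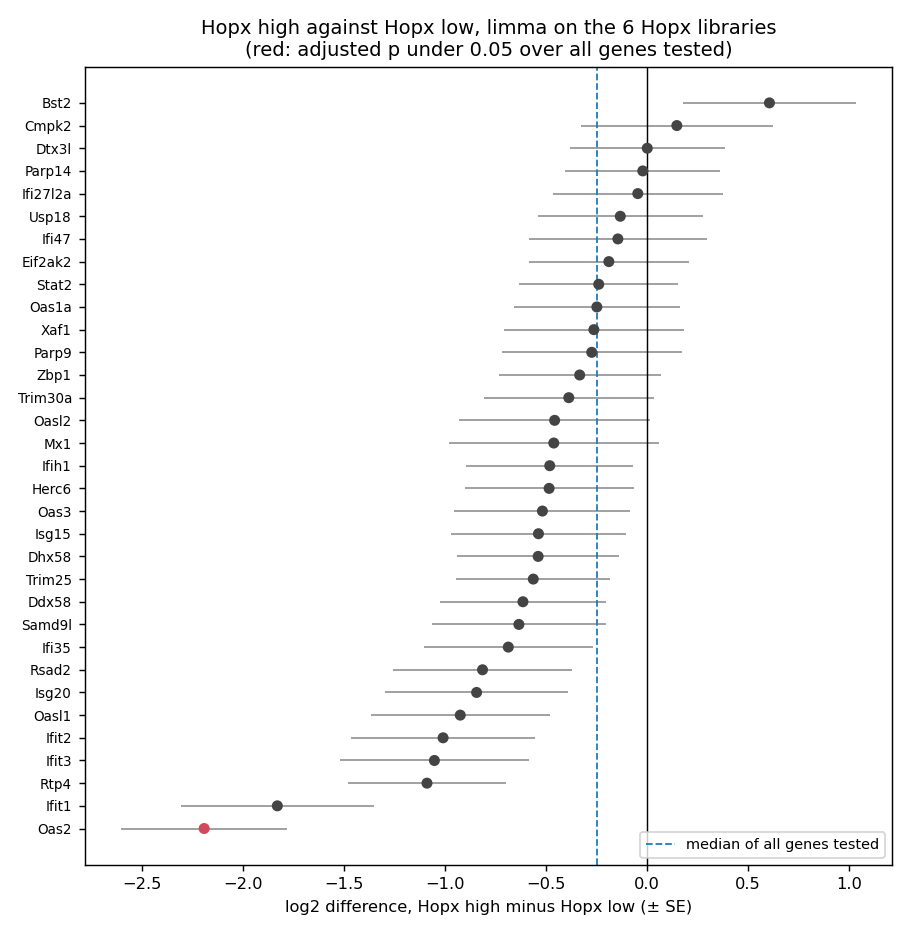
Fitted log2 difference between Hopx high and Hopx low (± SE) for the 33 tested genes in the fit to the 6 Hopx libraries, with the median of all genes tested as a dashed line. Oas2, in red, is the 1 gene past an adjusted p of 0.05, Ifit1 comes next at -1.83, and Bst2, at 0.60, lies at the other end.

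The differences were uneven across replicate numbers. Same-numbered Hopx high and Hopx low samples were set side by side, though the labels do not state that they pair. Their deviations from the group means over 5260 genes had an r of 0.486, 0.509 and 0.183 for replicates 1, 2 and 3. For replicates 1, 18 of 33 members were lower in Hopx high, with a median of -0.02 (all genes 0.07). For replicates 2, 20 were lower, with a median of -0.17 (all genes -0.03). For replicates 3, 31 were lower, with a median of -1.18 (all genes -0.75). Hopx high replicate 3 was the lowest library of its group for 25 of the 33 members and for 65.1% of all genes. Without it the members' median was -0.09, beside -0.07 for all genes. Oas2 differed by -2.21, -2.33 and -2.03 in the 3 pairs, whereas Ifit1 differed by -0.67, -0.81 and -4.01. Lower values in all 3 pairs were found for 13 of 33 members and 27.2% of all genes, and Bst2 was the 1 member higher in all 3.

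**Figure D4:**
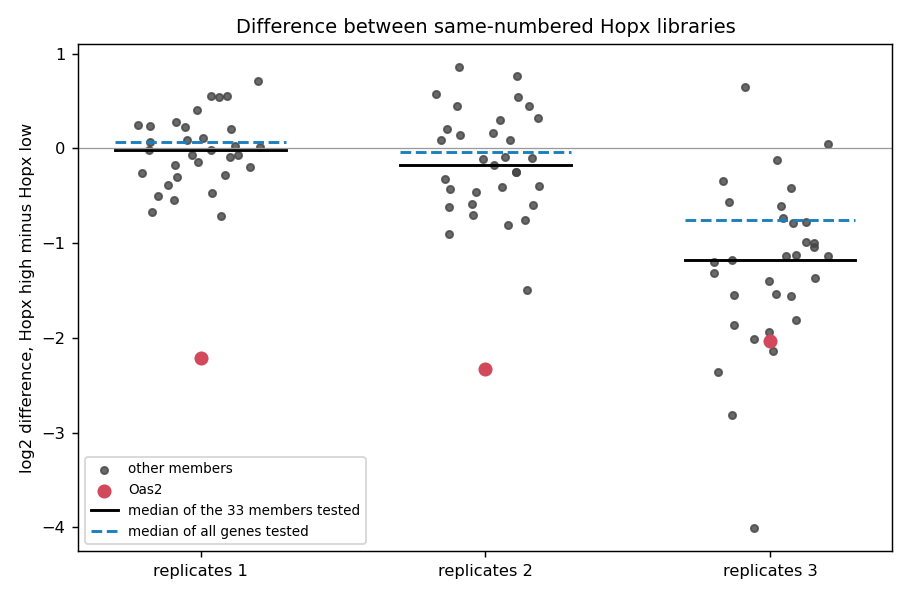
Log2 difference between same-numbered Hopx high and Hopx low libraries for each of the 33 tested genes, with the median of these genes (solid) and of all genes tested (dashed). Oas2 lies between -2.33 and -2.03 in all 3 pairs, while the median of the 33 goes from -0.02 in replicates 1 to -1.18 in replicates 3.

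The Ifit proteins bind viral RNA ends and block its translation, and their genes sit together on chromosome 19, with Ifit2 7111 bases before Ifit3 and Ifit1 52139 bases beyond Ifit3. They are described because of their role and their sequences above, and were picked for full values after these had been seen. Ifit1 was at 18.2, 20.2 and 7.41 bases per Mb in Hopx high libraries, 29.7, 36.03 and 134 in Hopx low and 3.51, 0 and 121 in naive. Its log2 difference between Hopx high and Hopx low was -1.83 (SE 0.48, limma adjusted p = 0.0622 in the 6-library fit). It passed without Hopx low replicate 1 (0.00493), without Hopx low replicate 2 (0.0287) or without Hopx high replicate 2 (0.0149). Without Hopx low replicate 3 the difference was -1.16 (adjusted p = 0.593). Ifit2 was at 16.6, 13.6 and 11.6 in Hopx high, 15.5, 23.6 and 64.0 in Hopx low and 3.92, 2.07 and 50.3 in naive. Ifit3, which has a near copy in the mouse genome, was at 38.0, 15.8 and 11.8 in Hopx high, 35.1, 22.05 and 88.8 in Hopx low and 5.45, 14.6 and 58.0 in naive. In naive and in Hopx low, replicate 3 was the highest for each of the 3 Ifit genes, and in Hopx high it was the lowest. Ifit2 and Ifit3 differed by -1.01 and -1.05 (adjusted p = 0.465 and 0.453).

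**Figure D5:**
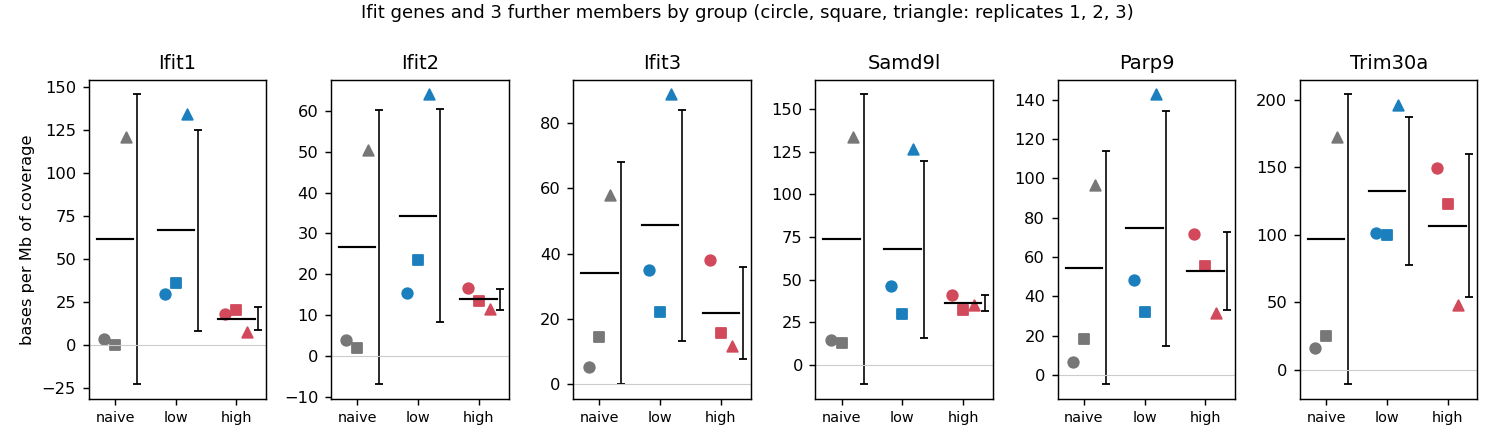
Bases per Mb of 3 Ifit genes and of Samd9l, Parp9 and Trim30a in each library, with the group mean and SD (naive n = 2, Hopx low and Hopx high n = 3); an SD wider than its mean reaches below 0, and the axes differ between panels. The triangles (replicate 3) are the highest in naive and in Hopx low for all 6 genes, and the lowest in Hopx high for all but Samd9l. Over the 33 tested genes, Hopx low replicate 3 was the highest of its group for 15 (48.1% of all genes) and replicate 1 for 17 (41%).

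Among the other direct effectors, the abundant Ifi27l2a was at 725, 613 and 666 bases per Mb in Hopx low and at 597, 653 and 689 in Hopx high. Naive libraries held 183, 210 and 298, below every Hopx library. Between Hopx high and Hopx low it differed by -0.05 on the log2 scale (SE 0.42, adjusted p = 0.976). Bst2, or tetherin, which holds budding virus at the cell surface, was at 379, 122 and 191 in Hopx high, 231, 89.4 and 121 in Hopx low and 72.3, 91.5 and 57.6 in naive. Its log2 difference of 0.60 between Hopx high and Hopx low (SE 0.43, adjusted p = 0.646) was the highest of the 33. Ifi47, an immunity-related GTPase that also answers to interferon gamma, was at 292, 628 and 163 in Hopx high, 245, 346 and 478 in Hopx low and 123, 90.7 and 292 in naive, and gave -0.14 (adjusted p = 0.926). It shares 111 exon bases with Olfr56. Samd9l, a translation inhibitor, was at 41.2, 32.0 and 35.4 in Hopx high, 46.6, 30.1 and 127 in Hopx low and 14.4, 12.8 and 134 in naive, and gave -0.63 (adjusted p = 0.633).

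The remaining effectors were lower in level. Eif2ak2, the kinase PKR that stops translation on double-stranded RNA, was at 35.3 to 54.1 in Hopx high, 35.7 to 71.7 in Hopx low and 5.04, 3.19 and 34.8 in naive. Isg20, a ribonuclease, was at 6.66 to 13.2 in Hopx high, 10.95 to 19.6 in Hopx low and 3.17 to 4.98 in naive. Rsad2, or viperin, and Cmpk2, a nucleotide kinase 12751 bases away, act together in making a chain-terminating nucleotide. Rsad2 was at 8.505 to 14.8 in Hopx high and 13.4 to 23.8 in Hopx low, and Cmpk2 at 3.87 to 10.8 and 5.19 to 8.63. Mx1, a dynamin-like GTPase against influenza-type viruses, was at 1.34 to 10.9 in Hopx high and 7.17 to 10.4 in Hopx low. None of the 12 tested effectors passed limma between Hopx high and Hopx low. Laboratory strains such as C57BL6 carry a defective Mx1 allele.

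Isg15 encodes a ubiquitin-like protein that is joined to other proteins. It was at 118, 51.1 and 28.7 bases per Mb in Hopx high libraries, 117, 54.8 and 85.0 in Hopx low and 53.4, 66.1 and 56.3 in naive, and differed between Hopx high and Hopx low by -0.54 (SE 0.43, adjusted p = 0.684). Usp18, the protease that removes Isg15 and damps the receptor, was at 119, 130 and 42.0 in Hopx high, 97.8, 95.2 and 92.5 in Hopx low and 49.99, 59.5 and 65.8 in naive (-0.13, adjusted p = 0.927). The Hopx low values were tight, whereas Hopx high replicate 3 was below all naive libraries. Herc6, the ligase that attaches Isg15 in mice, was at 18.9 to 25.3 in Hopx high, 20.3 to 48.5 in Hopx low and 8.31 to 49.6 in naive.

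The ubiquitin ligases of the set varied most in naive. Trim25, which activates the sensor RIG-I, was at 195, 152 and 153 in Hopx high and 224, 248 and 265 in Hopx low, without overlap, and at 61.9, 99.2 and 387 in naive. Its log2 difference of -0.56 between Hopx high and Hopx low did not pass (SE 0.38, adjusted p = 0.632). Trim30a, a restraint on NF-kappaB signalling, was at 149, 123 and 47.8 in Hopx high, 102, 99.97 and 196 in Hopx low and 16.4, 25.0 and 173 in naive (-0.39, adjusted p = 0.773). Dtx3l was at 86.0, 67.7 and 64.2 in Hopx high, 64.5, 58.8 and 98.6 in Hopx low and 28.5, 33.6 and 154 in naive (0.00, adjusted p = 1.00). Dtx3l works in a complex with Parp9, and the genes share 458 exon bases on opposite strands. The sources used here do not state whether strand was used, and reads of this stretch could count for either gene.

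Of the regulators, Rtp4, a protein that dampens the response by acting on the kinase TBK1 in mice, was at 44.4, 46.04 and 25.2 in Hopx high and 73.3, 71.0 and 99.5 in Hopx low, without overlap. Naive libraries were at 25.9, 38.2 and 91.1. Its log2 difference between Hopx high and Hopx low was -1.09 (SE 0.39, adjusted p = 0.274). Parp14, a mono-ADP-ribosyltransferase, was nearly level across the Hopx libraries, at 229, 217 and 239 in Hopx high and 195, 245 and 260 in Hopx low (-0.02, adjusted p = 0.988). In naive it was at 48.9, 45.3 and 310. Parp9 was at 71.6, 55.5 and 31.7 in Hopx high, 48.6, 32.3 and 143 in Hopx low and 6.82, 18.5 and 96.6 in naive (-0.27, adjusted p = 0.851). Ifi35, a leucine zipper protein, was at 191, 95.8 and 57.5 in Hopx high, 229, 114 and 171 in Hopx low and 95.5, 79.8 and 119 in naive (-0.69, adjusted p = 0.589). Stat2, a subunit of ISGF3, was at 34.2 to 64.2 in Hopx high, 46.1 to 63.2 in Hopx low and 27.7 to 86.0 in naive. Xaf1, a factor that opposes the apoptosis inhibitor XIAP, was at 12.5 to 15.9 in Hopx high, 10.47 to 29.4 in Hopx low and 0, 0 and 27.8 in naive.

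The sensors recognise viral nucleic acid in the cytoplasm. Zbp1, a sensor of left-handed nucleic acid, was at 83.3, 59.9 and 33.2 in Hopx high, 84.2, 54.1 and 73.8 in Hopx low and 18.9, 16.4 and 76.5 in naive (-0.33, adjusted p = 0.794). Ddx58, which is RIG-I, was at 22.04, 15.0 and 17.4 in Hopx high and at 29.0, 28.9 and 26.1 in Hopx low, without overlap. Ifih1, which is MDA5, was at 25.2, 24.0 and 14.2 in Hopx high and at 25.4, 31.9 and 30.2 in Hopx low, without overlap by a narrow margin. Dhx58, or LGP2, which tunes both, was at 32.5 to 71.1 in Hopx high and 47.6 to 74.8 in Hopx low. None of the 4 passed between Hopx high and Hopx low (smallest adjusted p = 0.629).

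Against naive, no member passed limma in either direction for Hopx high, where 3.30% of all genes were called higher and 0.499% lower, or for Hopx low, where 0.296% were called higher and 0.00924% lower. At an unadjusted p under 0.05, 3 members were higher (11.1% of all genes) and 1 was lower (4.36%) in Hopx high, and 3 were higher (8.06%) and none lower (0.462%) in Hopx low. Oas2 was lower by 2.22 on the log2 scale in Hopx high than in naive (SE 0.63, adjusted p = 0.0536), without overlap, as for 10.1% of all genes. Of 16 alternatives it passed in 2, under scaling by the median gene (0.00821) and without naive replicate 1 (0.0387). Without naive replicate 3 the difference was -1.14 (adjusted p = 0.142). Between Hopx low and naive Oas2 differed by -0.03 (adjusted p = 0.995), and by 1.05 without naive replicate 3 (adjusted p = 0.178). Ifi27l2a differed from naive by 1.41 in Hopx high (SE 0.45, adjusted p = 0.0896) and by 1.46 in Hopx low (adjusted p = 0.215). Eif2ak2 differed by 1.81 (adjusted p = 0.176) and 2.00 (0.313), and Bst2 by 1.58 (0.133) and 0.97 (0.664). With naive replicates 1 and 2 averaged, these 3 genes and Isg20 lay above both naive samples in every Hopx high library, where 15.3% of all genes did. In Hopx low 7 members did so, where 19.1% did, and no member lay below both naive samples in every library, where 3.81% did. The median difference was 0.05 for Hopx high (all genes 0.15) and 0.68 for Hopx low (all genes 0.38). Both comparisons use the same naive libraries, and sex cannot be told apart from either.

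These counts rest on naive libraries that differed among themselves. Naive replicate 3 was above the mean of replicates 1 and 2 for 29 of 33 members, with a median log2 difference of 2.08, beside 0.91 and 75.3% of all genes. The gap grew with exon length: it was 0.41 for 7 members with exons under 2000 bases (all genes 0.25), 1.66 for 9 of 2000 to 4000 (all genes 0.56) and 2.42 for 17 over 4000 (all genes 1.33). Naive replicate 3 was the highest of all 9 libraries for 11 members, among them Oas2, Trim25 and Parp14, and for 30.0% of all genes. Without it, the members' median log2 difference from naive was 1.19 in Hopx high (all genes 0.67) and 1.68 in Hopx low (all genes 0.88). Xaf1 then differed by 3.89 and Eif2ak2 by 3.22 in Hopx high, and Ifit1 by 4.28 and Xaf1 by 4.15 in Hopx low. These fits rest on a single naive sample that is assumed to vary like the other groups. Naive replicates 1 and 2 also had less coverage than replicate 3 and more Gas5, a non-coding RNA that took 40.0% and 29.1% of their coverage against 5.68%. The part of depth, exon length and Gas5 in these differences was not tested.

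The rest of the pathway was read from lists, chosen like the 34 with earlier results known. The receptor and ISGF3 list (Ifnar1, Ifnar2, Jak1, Tyk2 and Irf9) had 0 of 5 genes called by limma in any comparison, and none with an unadjusted p under 0.05. Jak1 was at 129, 118 and 125 bases per Mb in Hopx high libraries, 124, 109.8 and 149 in Hopx low and 33.5, 31.8 and 203 in naive. It differed by -0.04 on the log2 scale between Hopx high and Hopx low (adjusted p = 0.978 in the 6-library fit), and Tyk2 by -0.64 (adjusted p = 0.589). Of 15 interferon genes, 13 were at 0 in all 9 libraries, and the other two had less than 1 read's worth in 1 library each, Ifnb1 at 0.0476 and Ifna12 at 0.0577. Negative regulators of the receptor, with Socs3 and Ptpn6 as the most abundant, had 0 of 6 called by limma. At an unadjusted p under 0.05, 1 was higher in each comparison with naive (11.1% of all genes in Hopx high, 8.06% in Hopx low). In the sensing pathway, 1 of 12 tested genes was called, Tmem173, the adaptor STING, which rose by 2.09 on the log2 scale from naive to Hopx high (SE 0.55, adjusted p = 0.0363), where 3.30% of all genes were called higher. It was at 92.0, 86.2 and 38.9 in Hopx high, 52.6, 49.8 and 56.5 in Hopx low and 11.6, 11.4 and 19.6 in naive. At an unadjusted p under 0.05, 2 genes of this list were lower in Hopx high than in Hopx low in the 6-library fit (6.46% of all genes). Against naive 3 were higher (11.1%) and 1 was lower (4.36%) in Hopx high, and 4 were higher in Hopx low (8.06%).

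Of 40 other tested interferon-stimulated genes, which include the abundant Shisa5 and Helz2, none was called by limma in any comparison. At an unadjusted p under 0.05, 3 of the 40 were lower in Hopx high than in Hopx low in the 6-library fit (6.46% of all genes). Against naive, 6 were higher in Hopx high (11.1% of all genes) and 4 in Hopx low (8.06%). Their median difference between Hopx high and Hopx low was -0.31, beside -0.25 for all genes in the 6-library fit. Of 16 interferon gamma-inducible genes 1 was called. Psmb9, an immunoproteasome subunit, rose by 2.26 on the log2 scale from naive to Hopx high (SE 0.54, adjusted p = 0.0205), at 265, 105 and 187 in Hopx high, 107, 53.8 and 71.4 in Hopx low and 45.4, 54.7 and 25.0 in naive. The median of this list between Hopx high and Hopx low was 0.17 in the 6-library fit, beside -0.25 for all genes. Medians of the receptor, regulator and sensing lists were -0.40, -0.17 and -0.45, and that of the 34-gene set -0.48. The regulator list thus lay above the median of all genes. At an unadjusted p under 0.05, 2 interferon gamma-inducible genes were higher in Hopx high than in Hopx low in that limma fit (3.31% of all genes). Against naive, 3 were higher (11.1%) and 1 was lower (4.36%) in Hopx high, and 1 was higher in Hopx low (8.06%).

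Markers of other cells were read in the same libraries. Of the CD4 T cell list, 7 of 8 genes were matched and all 7 were above 0 in every library. Of the CD8 T cell list, Cd8b1 was at 14.8 to 31.1 over the libraries, whereas Cd8a did not exceed 0.362. The summed level of 7 B cell markers was 2.81 to 8.45 bases per Mb in Hopx high libraries. It was 20.1 to 25.3 in Hopx low and 13.4 to 36.2 in naive, so Hopx high lay below the other groups. Of the 7, 2 were above 0 in every library. Cd79a, a subunit of the B cell receptor, was at 0.261, 0.635 and 1.10 in Hopx high, 8.29, 3.71 and 6.79 in Hopx low and 13.7, 8.18 and 13.8 in naive, and fell by 2.10 on the log2 scale from Hopx low to Hopx high in the 6-library fit (adjusted p = 0.0320). The all-group fit did not call it (adjusted p = 0.400), and it was lower by 3.03 in Hopx high than in naive (adjusted p = 0.00771). Fewer cells of a type and less RNA per cell cannot be told apart in such samples, and the part of B cell RNA in the Oas2 result was not tested. Monocyte markers summed to 1.01 to 5.05 in Hopx high, 5.98 to 7.54 in Hopx low and 1.89 to 4.15 in naive. The 1.89 was in naive replicate 1, where 1 read of 100 bases adds 1.58. The part of monocyte RNA in the Oas2 result was not tested. Conventional dendritic cell markers summed to 0.947 to 7.26 over all libraries, with Xcr1 and Clec9a at 0 throughout. Of plasmacytoid dendritic cells, known as rich sources of type I interferon, Siglech and Klk1 were at 0 in every library, and the list without Bst2 and Irf8, which activated T cells also express, summed to at most 4.08. Irf8, a transcription factor, was at 546, 318 and 239.9 in Hopx high, 348, 232 and 303 in Hopx low and 36.6, 44.8 and 51.7 in naive. It was higher than in naive by 2.89 in Hopx high (adjusted p = 0.00121) and by 2.64 in Hopx low (adjusted p = 0.0131). NK cell markers summed to 6.90 to 31.2 in Hopx libraries and 0.537 to 3.73 in naive, with Klrb1c at 0 throughout. Nkg7 made up most of that sum in each Hopx library. Tyrobp was at 0.863 to 3.41 in Hopx libraries and at most 0.699 in naive. Klrd1 went the other way, at most 1.09 in Hopx libraries and at 0.537, 0.82 and 3.03 in naive. Ncr1 did not exceed 0.231. Whether NK cells were present was not tested. Nkg7, a protein of cytotoxic granules, was at 29.1, 7.33 and 8.68 in Hopx high, 19.6, 4.81 and 4.11 in Hopx low and 0 in the naive libraries, and passed limma in Hopx high against naive (adjusted p = 0.00613).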

How the data were processed

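The measurements are RNA coverage in 9 libraries of mouse CD4 T cells in 3 groups. The labels' protocols name ribosomal RNA removal and an Ion total RNA library kit; the submitters' processing notes name bedtools and mm10. The aligner, the annotation and any use of strand: not given in the sources used here. The deposited table gives a coverage signal that the authors scaled to a common total, in 23171 gene rows. The signal equals summed base coverage plus 1 base, and base counts were recovered as whole numbers within 1e-06 in 100% of values. The deposited group ratio (fold) and unadjusted p-value were recomputed from it.

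Bases were set per Mb of the library total, since the added base weighs differently in each library. Genes with a mean of at least 1 were tested with limma 3.58.1 (R 4.3.3) on log2(bases per Mb + 1), with a variance trend and Benjamini-Hochberg adjustment over all genes tested at 0.05. Differences on this scale understate the change of low genes. Hopx high and Hopx low were compared in a fit to all groups and in a fit to the 6 Hopx libraries, because earlier results of these data showed that the fits call different numbers of genes. The libraries described as naive 1A and 1B (replicates 1 and 2) had a median chi-square ratio of 0.971 at 100 bases a read (6.35 to 17.8 in the other pairs within groups) and were averaged. The deviations of same-numbered Hopx samples from their group means, over 5260 genes, had an r of 0.486, 0.509 and 0.183 between Hopx low and Hopx high. Each was above 0.1, the rule used here to set the numbers side by side. Naive numbers did not meet it for every replicate, yet r between Hopx low and naive was 0.599 and 0.649 for replicates 1 and 3. Deviations of differently numbered libraries were not compared between groups, so this rule does not show that samples are paired. The fit was also run on simulated data, in which every library had the same spread and low genes were left unchanged. No naive library stood apart there, so the simulation does not show how well the fit works on these libraries.

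The 34 genes and all other lists were chosen with earlier results of these data known. Of 181 listed genes 2 were not matched and 3 were matched by an older symbol, and 1 gene of the pathway is not reported here. All 34 are named by role. Full values were given for called members and for those with the highest mean, up to 16. From other lists up to 4 called genes, or the 2 most abundant where none was called, could be named. The alternatives were values as deposited, median-gene scaling, no filter, a pseudocount of 0.1, no trend, a replicate block, separate naive samples and leaving out each replicate. Coordinates and exon lengths came from GENCODE M21 and promoters from RefSeq. Python 3.11.15 with pandas 2.3.3, scipy 1.17.1 and matplotlib 3.10.9 made the tables and figures.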

Additional observations from a re-analysis of the deposited data

How the results depend on the processing

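The lower Oas2 in Hopx high than in Hopx low kept its direction in all 12 alternatives of the 6-library fit, with log2 differences of -2.34 to -1.95, and its call in 11, the exception being no filter on low values (-2.19, adjusted p = 0.227). It kept its direction in all 16 alternatives of the fit to all groups and passed in 1. With the replicate block the 6-library fit called Oas2 (adjusted p = 0.0116) and 75 genes in all, beside 69 without it. In Hopx high against naive the block gave 1 member higher, Bst2 (limma adjusted p = 0.0283). It gave 12 genes in all in Hopx low against naive. Naive numbers did not meet the rule used for pairing, and the block changed no other call of a member.

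In the 6-library fit, 0 members and 0 genes were called with no filter, 28 genes with no variance trend, 41 with a pseudocount of 0.1 and 9 with values as deposited. Scaling by the median gene gave 41 higher and 5 lower genes, beside 53 and 16, and moved the median of all genes from -0.25 to -0.01. Leaving out 1 replicate gave 5 to 79 genes, 1 to 2 members lower and a members' median of -0.70 to -0.094. Omitting replicate 3 gave the fewest genes, 5 for that of Hopx low and 9 for that of Hopx high. Leaving out 1 replicate from the all-group fit gave 0 to 57 genes, 0 to 1 member lower and a median of -0.70 to -0.094.

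Hopx high against naive called 357 genes higher and 54 lower. No filter gave 240 genes, separate naive samples 866 genes and 2 members higher, and scaling by the median gene 508 higher and 196 lower, 704 in all, with 1 member lower. Leaving out 1 replicate gave 157 to 2706 genes, 0 to 10 members higher, 0 to 1 lower and a median of -0.074 to 1.19. Ifit1, at -0.28, ranged from -0.64 to 2.45, the highest being without naive replicate 3 (adjusted p = 0.00865). Hopx low against naive called 33 genes. No filter gave 8, a pseudocount of 0.1 gave 58, values as deposited 56, and separate naive samples 166 with 1 member higher. Leaving out 1 replicate gave 16 to 2773 genes, 0 to 19 members higher and a median of 0.60 to 1.68. The highest counts in both comparisons came without naive replicate 3, which leaves a single naive sample. The cause of these changes was not tested. Levels under 1.58 bases per Mb were not resolved in naive replicate 1, which limits Xaf1, Oasl2, Cmpk2, Mx1 and Ifi44 there.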
